A study of Mus musculus with 2 samples.

Results

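The genes described here are 43 mouse genes of the MAP kinase cascades, comprising 12 MAP kinases, 7 MAP2 kinases, 13 MAP3 kinases, 5 MAP4 kinases, 3 JNK scaffold genes and 3 genes of kinases that MAP kinases activate. They were taken by symbol, with earlier results of these data known, and genes without a peak were counted too. They were looked up in 2 lists of H3K36me2 peaks, which together name 18187 genes. The lists come from CUT&Tag, in which an antibody tethers the transposase Tn5 to chromatin, on mouse colon, with 1 library per genotype (Nsd2 fl/fl, labelled WT, and Nsd2 ΔIE, labelled NSD2-KO). In Nsd2 ΔIE mice, Nsd2, the gene of an enzyme that writes H3K36me2, is deleted in the intestinal epithelium with Villin-Cre, while the other cells of the colon keep it. Nsd2 fl/fl mice carry the floxed alleles and served as controls. Both groups were male littermates on a C57BL/6J background, aged 7 to 8 weeks when a high-fat cholesterol diet (HFCD) began, which lasted 18 weeks by the study's methods and 16 weeks by the series' design text. How many mice gave each library is not stated in the sources used here.

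In a MAP kinase cascade, a MAP3 kinase phosphorylates a MAP2 kinase, which in turn phosphorylates a MAP kinase, and MAP4 kinases act above the MAP3 kinases. The ERK branch mainly carries growth signals, while the JNK and p38 branches respond to stress and cytokines, and scaffold proteins hold the JNK kinases together. In the intestinal epithelium these cascades act on proliferation, on inflammation and on the tight junctions between cells, and JNK lies downstream of the ER stress sensor encoded by Ern1.

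The Nsd2 fl/fl list held 19976 peaks and the Nsd2 ΔIE list 23518. The lowest summed signal of a listed Nsd2 fl/fl peak was 21783, against 16571 for Nsd2 ΔIE, and the read depth of both is unknown. With 1 library per genotype, no difference has a replicate check and no test was made, and in whole tissue fewer cells that carry the mark cannot be told apart from less mark per cell. The lists also differed at genes of the colon's cell types. By the gene named in the lists, 4 of 9 epithelial markers had a peak in Nsd2 fl/fl and 7 had one in Nsd2 ΔIE, with 47515 bp and 77067 bp covered in all. Of these 7, 5 had more length in Nsd2 ΔIE and none less, where 37.6% and 43.8% of protein-coding genes with a peak had more and less. With every peak within 3 kb of a marker gene's listed extent counted instead, 4 had more and 1 less, with 48248 bp against 58118 bp. The one with less was Chga, a marker of endocrine cells, at 15372 bp in Nsd2 fl/fl with no Nsd2 ΔIE peak. Among the 4 with more was Vil1, the gene of villin, whose length by either assignment was 23472 bp in Nsd2 ΔIE against 13184 bp. The Nsd2 ΔIE mice carry Villin-Cre, and what part this transgene has in the peaks listed at Vil1 was not tested. The sums by extent therefore lean on single genes. Of 5 immune markers, 1 and 2 had a named peak (9746 bp and 8436 bp), and of 5 stromal markers, 2 and 3 (34529 bp and 21088 bp). The epithelial markers Krt8 and Cdx2, the immune markers Cd3e, Itgam and Adgre1 and the stromal markers Col1a1 and Acta2 had no named peak in either library. The part that cell makeup has in the differences below was not tested.

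By the gene that the deposited annotation names as nearest, 18 of the 43 cascade genes had a peak in Nsd2 fl/fl and 25 had one in Nsd2 ΔIE. Among all protein-coding genes of the RefSeq table, 30.9% had a peak in Nsd2 fl/fl against 32.9% in Nsd2 ΔIE. A peak in both libraries was listed for 11 cascade genes, against 20.4% of protein-coding genes, and a peak in neither for another 11, against 56.7%. The latter were the MAP kinase genes Mapk3, Mapk7 and Mapk13, which encode ERK1, ERK5 and p38δ, the MAP2 kinase genes Map2k1 and Map2k4, the MAP3 kinase genes Map3k2, Map3k4, Map3k8 and Map3k13, the MAP4 kinase gene Map4k5 and the scaffold gene Mapk8ip3. With peaks in an annotated exon or intron of the gene counted too, 24 cascade genes had a peak in Nsd2 fl/fl, against 34.3% of protein-coding genes, and 31 in Nsd2 ΔIE, against 37.0%. The named peaks numbered 24 in Nsd2 fl/fl, covering 126081 bp, and 32 in Nsd2 ΔIE, covering 135985 bp.

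A promoter peak, within 3 kb of a transcription start site (TSS), was named for 8 cascade genes in Nsd2 fl/fl, against 16.7% of protein-coding genes, and for 13 in Nsd2 ΔIE, against 16.3%. Mapk8ip1, Mapk8ip2 and Mapkapk3 had one in both. Of the members' own peaks, 33.3% lay at promoters in Nsd2 fl/fl (8 of 24, 95% Wilson interval 18% to 53.3%) and 53.1% in Nsd2 ΔIE (17 of 32, 36.4% to 69.1%), while the shares over all peaks were 32.1% and 27.9%. These intervals cover the counting of peaks alone. When any peak within 3 kb of a listed TSS was counted, whatever gene it was named for, the counts of both libraries were equal. Of the 32 members with a listed TSS, 14 then had such a peak in each library (43.8%), against 42.3% and 40.1% of protein-coding genes with a listed TSS. Within 10 kb the counts were equal too, at 20 each. At narrower windows they were not. Within 1 kb the Nsd2 fl/fl count was 5 and the Nsd2 ΔIE count 8, against 32% and 27.9% of protein-coding genes. For peaks over the TSS itself the counts were 4 and 6, against 24.4% and 18.5%. At these windows Nsd2 ΔIE had the higher count for members and the lower share for protein-coding genes.

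The difference between the assignments went further for covered length, the summed width of a gene's peaks. By the named gene, covered length was less in Nsd2 ΔIE for 10 of the 32 cascade genes with a peak, more for 17 and similar for 5, where less and more mean a log2 ratio below -0.5 or above 0.5 or a peak in 1 library only. Over protein-coding genes with a peak in either library, 43.8% had less and 37.6% more. When a peak was instead given to every gene whose listed extent, widened by 3 kb on both sides, it overlapped, 31 cascade genes had a peak, of which 15 had less length in Nsd2 ΔIE, 5 more and 11 a similar length. The corresponding shares of protein-coding genes were 44.7% less and 31.7% more. By extent, 27 of the 32 genes had a peak in Nsd2 fl/fl, against 71.0% of protein-coding genes with a listed extent, and 26 had one in Nsd2 ΔIE, against 72.6%.

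Of the 14 cascade genes whose name occurs only in the Nsd2 ΔIE list, 9 had an Nsd2 fl/fl peak in or next to them that is named for a neighbouring gene. Of the 7 named only in the Nsd2 fl/fl list, 3 had an Nsd2 ΔIE peak there. The 14 and 7 were 43.8% and 21.9% of the 32 genes, where 28.7% and 24.1% of protein-coding genes with a peak were named in that list alone. How many of those protein-coding genes had a peak of the other library nearby was not counted. Counting each peak once, the cascade genes held 54 peaks of 309705 bp in Nsd2 fl/fl and 45 peaks of 184425 bp in Nsd2 ΔIE by extent, a log2 ratio of -0.75, whereas the named peaks gave 0.11. For protein-coding genes the ratio was -0.25 by name and -0.29 by extent, so that the choice of assignment hardly moved the ratio there and turned its direction here. The median log2 ratio of cascade genes with peaks in both libraries was -0.25 by name (11 genes) and -0.47 by extent (22 genes), beside -0.32 and -0.35 for protein-coding genes. An extent was known only for genes that a list names, and it is that of the transcript with the nearest TSS, which can be shorter than the gene.

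**Figure D1:**
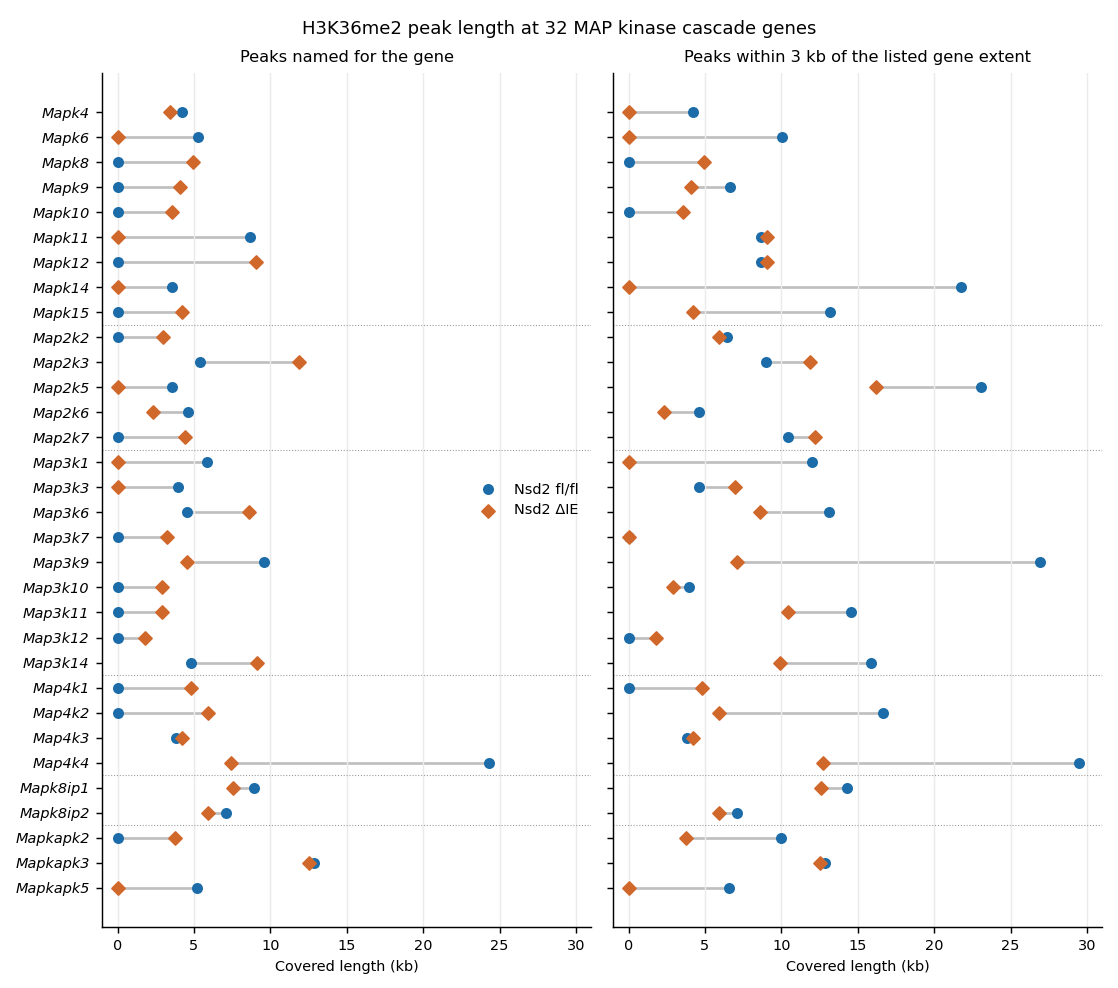
Covered length in kb of the 32 cascade genes that the lists name, in Nsd2 fl/fl (circles) and Nsd2 ΔIE (diamonds), with dotted lines between tiers; 1 library each, so points have no error. By named peaks (left) 17 genes had more length in Nsd2 ΔIE and 10 less, while by listed extent (right) 5 had more and 15 less.

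The JNK genes showed both sides of this. Mapk8 encodes JNK1, and had no Nsd2 fl/fl peak by either assignment. The nearest Nsd2 fl/fl peak lay 61.1 kb upstream of the listed TSS. In Nsd2 ΔIE a promoter peak of 4930 bp was listed at chr14:33170170-33175099, its near edge 955 bp upstream of the TSS. That peak had a signal of 26255, or 1.58 times the lowest in the list. Mapk9 encodes JNK2, and its named peak was a 4050-bp one in intron 3 of 12 in Nsd2 ΔIE (chr11:49749085-49753134, signal 20297). A longer Nsd2 fl/fl peak of 6624 bp and signal 35752 lay in exon 9 of 13 of Mapk9 (chr11:49766584-49773207), but is named for Rasgef1c. Mapk9 thus held a listed peak in both libraries, 13.4 kb apart, with a log2 ratio of -0.71 by extent. Mapk10, the gene of the JNK3 found mostly in neurons and heart, had a single peak, of 3580 bp in exon 7 of 12 in Nsd2 ΔIE (chr5:103131733-103135312), at 1.08 times the lowest signal. The nearest Nsd2 fl/fl peak to its TSS was 242.8 kb away. By name the JNK genes therefore covered 12560 bp in Nsd2 ΔIE and nothing in Nsd2 fl/fl, and by extent 12560 bp against 6624 bp. Among the strongest 50% of the Nsd2 ΔIE peaks, the Mapk8 peak was the one left.

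**Figure D2:**
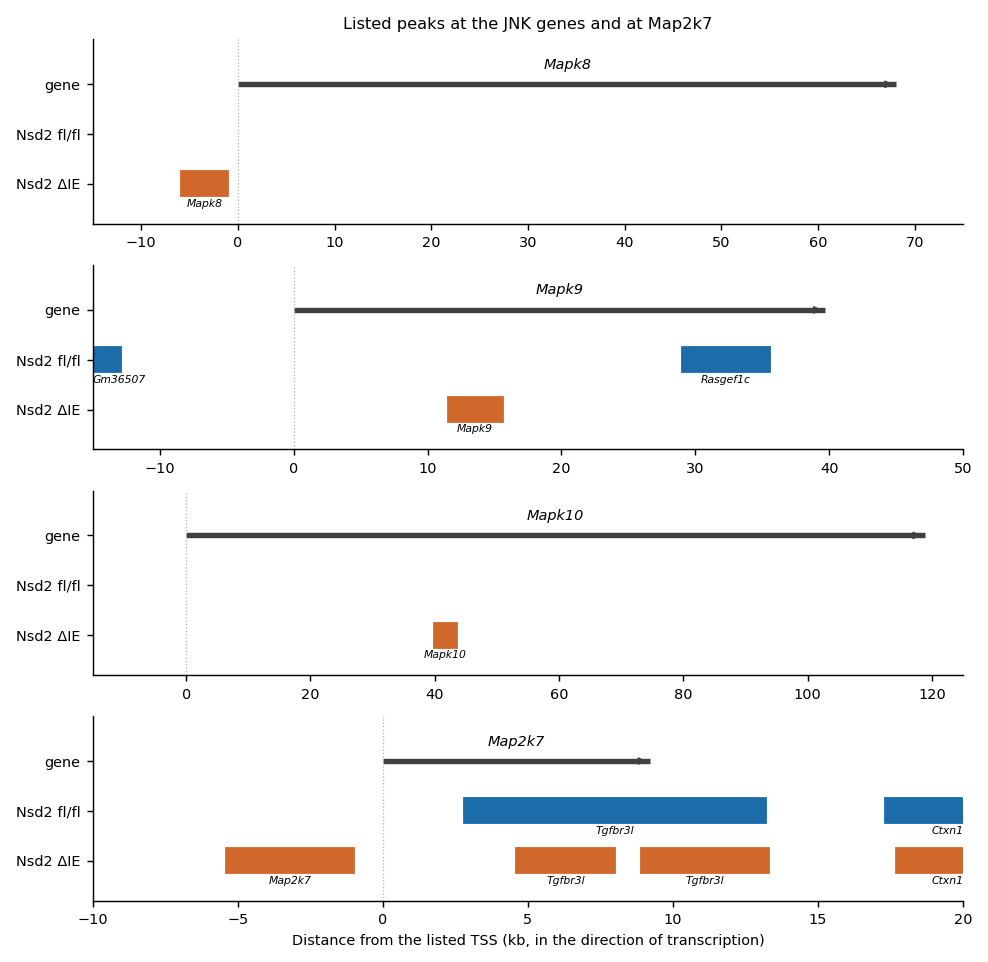
Listed peaks at Mapk8, Mapk9, Mapk10 and Map2k7 as distance in kb from the listed TSS (dotted line) along the direction of transcription; the dark arrow is the gene, boxes are peaks of Nsd2 fl/fl (upper) and Nsd2 ΔIE (lower), and the name under a box is the gene that the annotation gives it (boxes at the frame go on beyond it). Nsd2 ΔIE peaks lie just upstream of Mapk8 and Map2k7, and the Nsd2 fl/fl peaks inside Mapk9 and Map2k7 carry other genes' names.

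Map2k7 and Map2k4 encode the MAP2 kinases that phosphorylate JNK, MKK7 and MKK4. At Map2k7, Nsd2 ΔIE had a promoter peak of 4386 bp (chr8:4283342-4287727) that ended 1013 bp upstream of the TSS, at 1.78 times the lowest signal, and no Nsd2 fl/fl peak overlapped it. Inside the gene, a single Nsd2 fl/fl peak of 10415 bp (chr8:4291529-4301943, signal 63123) ran from 2.8 kb past the TSS to beyond the gene's end, and peaks of 3393 bp and 4389 bp in Nsd2 ΔIE lay within its span or ran just past it. All of these are named for the neighbour Tgfbr3l. By extent Map2k7 covered 10415 bp in Nsd2 fl/fl against 12168 bp in Nsd2 ΔIE, a similar length with a log2 ratio of 0.22. Map2k4 had no peak in either library, neither named for it nor in an annotated exon or intron.

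RefSeq promoter windows of Mapk8 and Map2k7, of 300 bases from 250 before to 50 after a start (GRCm38.p6, another build than the lists use), are given to show the sequence at these starts, with those of Map2k2, Mapk11 and Mapkapk3, whose listed TSSs lie inside peaks. Capitals mark CG dinucleotides. Where the table holds 2 windows of a gene, 1 is printed. The Mapk8 window printed is chr14:33447109-33447408 (minus strand), the Map2k7 window chr8:4238490-4238789 (plus), the Map2k2 window chr10:81105665-81105964 (plus), the Mapk11 window chr15:89149557-89149856 (minus) and the Mapkapk3 window chr9:107289347-107289646 (minus).
Mapk8: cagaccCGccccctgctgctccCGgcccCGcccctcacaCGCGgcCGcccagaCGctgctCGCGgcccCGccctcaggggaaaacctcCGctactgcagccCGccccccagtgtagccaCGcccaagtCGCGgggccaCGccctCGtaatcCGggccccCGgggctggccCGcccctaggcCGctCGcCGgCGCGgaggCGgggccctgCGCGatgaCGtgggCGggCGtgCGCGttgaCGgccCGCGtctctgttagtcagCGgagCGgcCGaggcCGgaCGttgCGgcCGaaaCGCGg
Map2k7: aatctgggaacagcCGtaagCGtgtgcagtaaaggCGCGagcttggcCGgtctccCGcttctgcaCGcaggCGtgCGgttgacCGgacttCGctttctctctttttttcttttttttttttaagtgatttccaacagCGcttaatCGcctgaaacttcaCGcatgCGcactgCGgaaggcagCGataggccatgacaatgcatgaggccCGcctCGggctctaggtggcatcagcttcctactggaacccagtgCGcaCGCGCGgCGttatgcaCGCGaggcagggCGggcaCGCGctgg
Map2k2: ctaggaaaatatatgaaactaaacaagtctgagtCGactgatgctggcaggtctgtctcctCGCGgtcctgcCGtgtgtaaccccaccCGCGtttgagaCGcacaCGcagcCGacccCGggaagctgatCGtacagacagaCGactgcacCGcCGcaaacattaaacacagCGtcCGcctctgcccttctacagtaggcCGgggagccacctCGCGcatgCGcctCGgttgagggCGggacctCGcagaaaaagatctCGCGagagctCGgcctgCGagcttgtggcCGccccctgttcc
Mapk11: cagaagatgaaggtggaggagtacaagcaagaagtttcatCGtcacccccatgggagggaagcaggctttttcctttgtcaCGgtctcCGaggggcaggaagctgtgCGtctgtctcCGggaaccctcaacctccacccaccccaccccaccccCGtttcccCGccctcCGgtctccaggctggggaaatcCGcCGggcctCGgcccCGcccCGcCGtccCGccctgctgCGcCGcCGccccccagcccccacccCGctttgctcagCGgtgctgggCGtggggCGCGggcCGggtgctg
Mapkapk3: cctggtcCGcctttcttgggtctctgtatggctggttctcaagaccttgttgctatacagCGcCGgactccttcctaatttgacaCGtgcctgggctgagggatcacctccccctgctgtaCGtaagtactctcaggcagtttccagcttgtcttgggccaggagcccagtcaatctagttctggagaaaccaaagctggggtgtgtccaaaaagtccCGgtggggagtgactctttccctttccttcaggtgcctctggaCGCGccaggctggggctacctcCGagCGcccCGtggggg
They held 45, 29, 28, 24 and 11 CG pairs in that order. The further windows of Mapk8 and Map2k7 held 1 and 0, the window of Mapk9 held 23, those of Mapk10 held 8 and 2, and those of Map2k4 held 16 and 3. Except for Mapk8, whose listed start matched neither of its windows, each printed window gives the same gene length from its start as the listed transcript does. By that match, the whole window of Mapk11 lay in a peak in Nsd2 fl/fl and not in Nsd2 ΔIE, that of Map2k2 in Nsd2 ΔIE and not in Nsd2 fl/fl, and that of Mapkapk3 in both, while no base of the Map2k7 window was in a peak of either library. The table holds 48 windows of 36 cascade genes, with a median of 22 CG pairs, against 13 over the 21262 windows of protein-coding genes. Windows of cascade genes with a named promoter peak in either library had a median of 17.0 (21 windows), and those without one 28.0 (27 windows). Among protein-coding genes the order was the other way, with 16.0 against 12.0. The letters TGANTCA, the AP-1 motif bound by the JNK target JUN, were searched on both strands and found in 3 of the 48 windows (6.25%), in Map2k6, in the other window of Map2k7 and in Map3k10, against 6.99% of the windows of protein-coding genes. The CRE motif TGACGTCA was in 1 window, of Mapk10 (2.08%, against 2.23%), and the ETS motif CCGGAAG in 4 (8.33%, against 11.6%), of Map3k6, Map3k11, Map4k1 and Mapk8ip3. A match of letters is no measured binding site.

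Of the JNK scaffold genes, Mapk8ip1 and Mapk8ip2 had promoter peaks in both libraries. Mapk8ip1 encodes JIP1, which binds JNK with its upstream kinases. In Nsd2 fl/fl a single peak of 8952 bp covered the inner of its listed TSSs (chr2:92221253-92230204, 2.57 times the lowest signal). In Nsd2 ΔIE the same stretch held peaks of 5191 bp (chr2:92221532-92226722) and 2361 bp (chr2:92228591-92230951), whose outer edges lay 279 bp and 747 bp from those of the Nsd2 fl/fl peak. The summed lengths differed by a log2 ratio of -0.25. Mapk8ip2 encodes JIP2, and had the same arrangement, with a single peak of 7088 bp in Nsd2 fl/fl (chr15:89339122-89346209). The Nsd2 ΔIE peaks were 3182 bp long, within its span, and 2719 bp long, ending 1229 bp past it, which gave a log2 ratio of -0.26. Mapk8ip3, the gene of JIP3, has no named peak. Under the name of Nme3, 2 Nsd2 fl/fl peaks, of 3483 bp and 5073 bp, lay in its exons 9 and 6 of 32. No Nsd2 ΔIE peak was annotated to an exon or intron of Mapk8ip3. An Nsd2 ΔIE peak of 3905 bp, also named for Nme3, lay 3.1 kb from the exon 9 peak. Whether that peak lies in Mapk8ip3 is not known, since the extent of the gene is not listed.

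Among the p38 genes, Mapk11 and Mapk12 are close neighbours on chromosome 15, read in the same direction, and encode p38β and p38γ. In Nsd2 fl/fl a peak of 8632 bp (chr15:89027280-89035911, 2.35 times the lowest signal) covered the TSS of Mapk11 and is named for it. In Nsd2 ΔIE a peak of 3717 bp (chr15:89027231-89030947) shared its downstream part to within 49 bp of its edge and did not reach that TSS, 2.9 kb away, but is named for Mapk12. A further Nsd2 ΔIE peak of 5323 bp (chr15:89018870-89024192, 2.2 times the lowest signal) covered a TSS of Mapk12, where no Nsd2 fl/fl peak overlapped. By name Mapk11 is thus in the Nsd2 fl/fl list alone with 8632 bp and Mapk12 in the Nsd2 ΔIE list alone with 9040 bp, whereas by extent each gene had 8632 bp and 9040 bp, a log2 ratio of 0.07. Upstream of Mapk11 by 3.7 kb lay an Nsd2 fl/fl peak of 24624 bp, named for Mir7118.

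**Figure D3:**
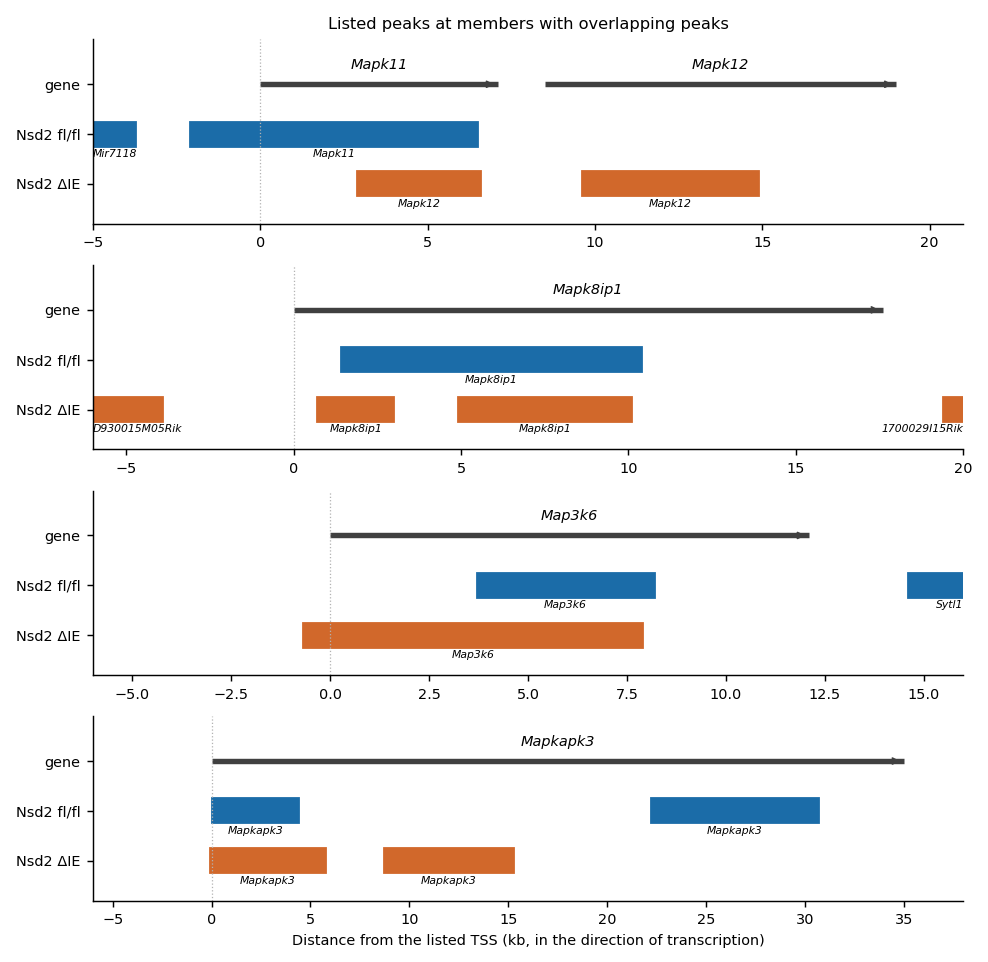
Listed peaks at Mapk11 with Mapk12, Mapk8ip1, Map3k6 and Mapkapk3 as distance in kb from a listed TSS of the first gene along the direction of transcription, drawn as boxes for Nsd2 fl/fl (upper) and Nsd2 ΔIE (lower) with the gene that the annotation names under each. The Nsd2 fl/fl peak of 8632 bp at Mapk11 and the Nsd2 ΔIE peak of 3717 bp under it share an edge to within 49 bp and carry different names.

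Mapk14, which encodes p38α, the main p38 of most tissues, had peaks in Nsd2 fl/fl alone by both assignments. Its one named peak was 3555 bp long, 2.4 kb downstream of the TSS in Nsd2 fl/fl (chr17:28913939-28917493). By extent the gene held 5 Nsd2 fl/fl peaks of 21734 bp in all and no Nsd2 ΔIE peak, and the nearest Nsd2 ΔIE peak lay 63.1 kb upstream of the TSS. The 4 further peaks are named for Gm4356. Mapk13, the gene of p38δ, had no peak named for it or in an annotated exon or intron. The p38 kinases are phosphorylated by the products of Map2k3 and Map2k6. Map2k3 had the peak of highest signal among those named for cascade genes, 11897 bp long in Nsd2 ΔIE (chr11:60829187-60841083, signal 76400), which ranked 110 of 23518. The Nsd2 fl/fl peak in the same exon 2 of 12 was 5378 bp long (chr11:60828958-60834335, signal 37689) and started 229 bp from it, a log2 ratio of 1.15. With an Nsd2 fl/fl peak of 3636 bp just upstream of the TSS, named for Map2k3os, the ratio by extent was 0.40. Map2k6 had a 4575-bp peak in exon 11 of 13 in Nsd2 fl/fl and a 2335-bp promoter peak in Nsd2 ΔIE, 15.8 kb apart, with a log2 ratio of -0.97.

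Of the ERK branch, Mapk3 and Mapk7 had no peak named for them or in an annotated exon or intron. For these, as for the other genes that no list names, the extent is unknown, so a promoter peak named for a neighbour would not be seen. Map2k1, which encodes the MEK1 that phosphorylates ERK, had none by name, yet a peak of 4376 bp in Nsd2 fl/fl (chr9:64100820-64105195) and one of 4782 bp in Nsd2 ΔIE (chr9:64098394-64103175) overlapped by 2356 bp in its exon 6 of 11, both named for Snapc5. Map2k2, the gene of MEK2, had a 2965-bp peak over its TSS in Nsd2 ΔIE (chr10:80939068-80942032), and the nearest Nsd2 fl/fl peak to that TSS lay 12.9 kb downstream. Inside the gene an Nsd2 fl/fl peak of 6441 bp and an Nsd2 ΔIE peak of 2963 bp overlapped under the name of Zbtb7a, and by extent the lengths were 6441 bp and 5928 bp. Map2k5, the gene of the kinase of ERK5, had a 3581-bp promoter peak in Nsd2 fl/fl alone, and by extent 5 peaks of 23081 bp against 4 peaks of 16213 bp, a log2 ratio of -0.51. Mapk6, which encodes the atypical ERK3, had 5233 bp in Nsd2 fl/fl by name and 10065 bp by extent, and no Nsd2 ΔIE peak by either. Mapk4, the gene of ERK4, had a 4214-bp promoter peak in Nsd2 fl/fl. Its named Nsd2 ΔIE peak, of 3426 bp, lay 30.9 kb upstream of the listed TSS. The annotation places that peak in intron 2 of 5 of a longer transcript than the one whose extent is listed. The same intron held Nsd2 fl/fl peaks of 3268 bp and 4928 bp and an Nsd2 ΔIE peak of 3382 bp, named for D730045A05Rik. Mapk15, the gene of ERK8, had a 4208-bp promoter peak in Nsd2 ΔIE (chr15:75869274-75873481), which overlapped a 13196-bp Nsd2 fl/fl peak named for Fam83h.

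Among the MAP3 kinases, Map3k6, which encodes ASK2, had a peak over its TSS in Nsd2 ΔIE (8591 bp, chr4:132967413-132976003, rank 332 of its list). The Nsd2 fl/fl peak of 4514 bp (chr4:132971826-132976339) shared the downstream edge to within 336 bp but started 3.7 kb past the TSS. The named lengths gave a log2 ratio of 0.93, while an Nsd2 fl/fl peak of 8615 bp past the end of the gene, named for Sytl1, turned the ratio by extent to -0.61. Map3k14 encodes NIK, a kinase of the noncanonical NF-κB pathway. It had a 4823-bp promoter peak in Nsd2 fl/fl and peaks of 3563 bp and 5586 bp farther from the TSS in Nsd2 ΔIE, with log2 ratios of 0.92 by name and -0.68 by extent. Map3k9, the gene of the mixed-lineage kinase MLK1, which acts on JNK, covered 9567 bp in Nsd2 fl/fl against 4527 bp in Nsd2 ΔIE, in intron 2 of 10 without overlap. By extent the lengths were 26932 bp and 7078 bp, including an Nsd2 fl/fl peak of 14159 bp at its end, a log2 ratio of -1.93. Map3k10 and Map3k11, the genes of MLK2 and MLK3, had promoter peaks in Nsd2 ΔIE of 2907 bp (chr7:27368689-27371595) and 2891 bp (chr19:5732831-5735721). The Map3k11 peak lay wholly in an Nsd2 fl/fl peak of 8105 bp named for Mir6987. Map3k10 held an Nsd2 fl/fl peak of 3978 bp in its exon 7 of 10, named for Gm38973. By extent the log2 ratio of Map3k10 was -0.45, a similar length.

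Map3k1, the gene of MEKK1, a JNK activator, had 5868 bp in intron 1 of 19 in Nsd2 fl/fl, and a further Nsd2 fl/fl peak of 6132 bp covered its TSS under the name of Gm15327. The nearest Nsd2 ΔIE peak to that TSS was 242.3 kb away. Map3k3, the gene of MEKK3, had a named peak in Nsd2 fl/fl alone, 5.5 kb upstream of its TSS, but in its exon 9 of 15 both libraries had a peak. Those of Nsd2 fl/fl (chr11:106038990-106043571) and Nsd2 ΔIE (chr11:106038990-106043456) began at the same base and are named for Gm10840. Map3k7, which encodes TAK1, had a peak 29.0 kb upstream of its TSS in Nsd2 ΔIE and no other. Map3k12, the gene of DLK, had a 1768-bp peak in Nsd2 ΔIE, the shortest peak named for a cascade gene, with a signal of 16622 beside the lowest of 16571. Without a named peak, Map3k4 had an Nsd2 ΔIE peak in exon 16 of 27 and Map3k13 one in intron 1 of 13, both named for other genes, and Map3k2 and Map3k8 had neither.

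Of the MAP4 kinases, Map4k4 had the longest named coverage of any cascade gene in Nsd2 fl/fl. It encodes HGK, a kinase upstream of JNK. It held 5 peaks of 24314 bp in Nsd2 fl/fl, in introns and exons 28.7 to 85.6 kb past the TSS, and 2 peaks of 7418 bp in Nsd2 ΔIE. Each of the latter overlapped one of the former, and the log2 ratio was -1.71 by name and -1.21 by extent. Map4k2, which encodes a kinase upstream of JNK, had promoter peaks of 2965 bp (chr19:6386792-6389756) and 2970 bp (chr19:6391185-6394154) in Nsd2 ΔIE alone by name. The first overlapped a 4538-bp Nsd2 fl/fl peak named for Men1 by 2777 bp, with edges 188 bp apart on the side of the gene. The second overlapped a 7226-bp Nsd2 fl/fl peak named for Mir6989 by 958 bp. By extent the lengths were 16673 bp in Nsd2 fl/fl against 5935 bp in Nsd2 ΔIE. Map4k3, the gene of GLK, had peaks of 3800 bp and 4199 bp that overlapped in intron 1 of 33, a log2 ratio of 0.14. Map4k1, which encodes HPK1, a kinase of blood cells, had a 4775-bp peak in exon 8 of 32 in Nsd2 ΔIE. Map4k5 had no named peak but 2 Nsd2 fl/fl peaks and 1 Nsd2 ΔIE peak in its first introns, named for other genes.

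Of the kinases that p38 and ERK activate, Mapkapk3, the gene of MK3, covered 12869 bp in Nsd2 fl/fl against 12532 bp in Nsd2 ΔIE, a log2 ratio of -0.04. Peaks of 4403 bp (chr9:107162649-107167051) and 5879 bp (chr9:107161287-107167165) covered the same listed TSS and had upstream edges 114 bp apart. The second peaks did not overlap, since that of Nsd2 fl/fl, of 8466 bp (chr9:107136411-107144876), lay in the downstream part of the gene and that of Nsd2 ΔIE, of 6653 bp (chr9:107151741-107158393), over an inner TSS. Mapkapk2, the gene of MK2, had a 3770-bp peak in intron 1 of 9 in Nsd2 ΔIE, while the 2 Nsd2 fl/fl peaks of 9977 bp in and at the gene are named for Gm25549. Mapkapk5, the gene of MK5, had Nsd2 fl/fl peaks alone, a named peak of 5175 bp upstream of the TSS and one of 6539 bp in exon 7 of 14, named for Adam1a.

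Summed by tier, the MAP kinases, MAP2 kinases and MAP3 kinases covered more length in Nsd2 ΔIE by name, with log2 ratios of 0.43, 0.67 and 0.20. By extent all of these ratios were negative, at -1.07, -0.14 and -0.93. The MAP4 kinases (-0.33 and -0.85), the scaffold genes (-0.25 and -0.21) and the MAPK-activated kinases (-0.15 and -0.85) covered less in Nsd2 ΔIE both ways. In these sums a peak near 2 members counts for each.

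**Figure D4:**
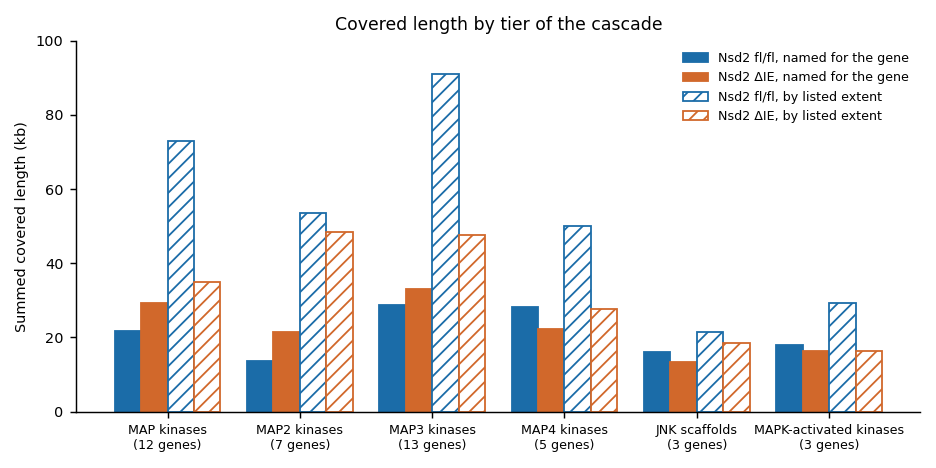
Summed covered length in kb per tier of the cascade for Nsd2 fl/fl and Nsd2 ΔIE, by named gene (filled bars) and by listed extent widened by 3 kb (hatched bars); 1 library each, so bars have no error. In the MAP kinases, MAP2 kinases and MAP3 kinases the filled bars are higher in Nsd2 ΔIE and the hatched bars higher in Nsd2 fl/fl.

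By position, 10 of the 24 named Nsd2 fl/fl peaks (41.7%, 95% Wilson interval 24.5% to 61.2%) overlapped an Nsd2 ΔIE peak by at least 1 bp, and 16 of the 32 Nsd2 ΔIE peaks (50%, 33.6% to 66.4%) overlapped an Nsd2 fl/fl peak. Over all peaks the shares were 34.1% and 30.7%. These intervals too cover the counting of peaks alone, and they treat peaks as independent. They are not, since both Nsd2 ΔIE peaks at Mapk8ip1 overlapped the same Nsd2 fl/fl peak, as did both at Mapk8ip2. With at least 50% of both peaks shared, 2 and 3 peaks remained (8.33% and 9.38%), at Mapk8ip1 and Mapkapk3 in both libraries and at Map4k2 in Nsd2 ΔIE. Over all peaks, 3154 of 19976 and 3154 of 23518 met this rule. These shares are higher than those of the members, but the latter rest on only 2 and 3 peaks. The members' peaks had a median signal of 1.26 times the lowest in Nsd2 fl/fl, near the 1.25 of all peaks. In Nsd2 ΔIE the median was 1.36 times, above the 1.24 of all peaks. Their median rank by signal was 9762 in Nsd2 fl/fl, against 9988.5 for all peaks. In Nsd2 ΔIE it was 8570, against 11759.5. Single peaks reached 2.31 times or more, which were the Nsd2 ΔIE peaks at Map2k3 and Map3k6, the Nsd2 fl/fl peaks at Mapk8ip1 and Mapk11, and at Mapkapk3 one Nsd2 fl/fl peak and both Nsd2 ΔIE peaks. Widths had a median of 4653.5 bp in Nsd2 fl/fl against 3743.5 bp in Nsd2 ΔIE, beside 4643.0 bp and 3426.0 bp for all peaks. Few were distal intergenic, 1 of 24 and 2 of 32, against 18% and 20.1% of all peaks.

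**Figure D5:**
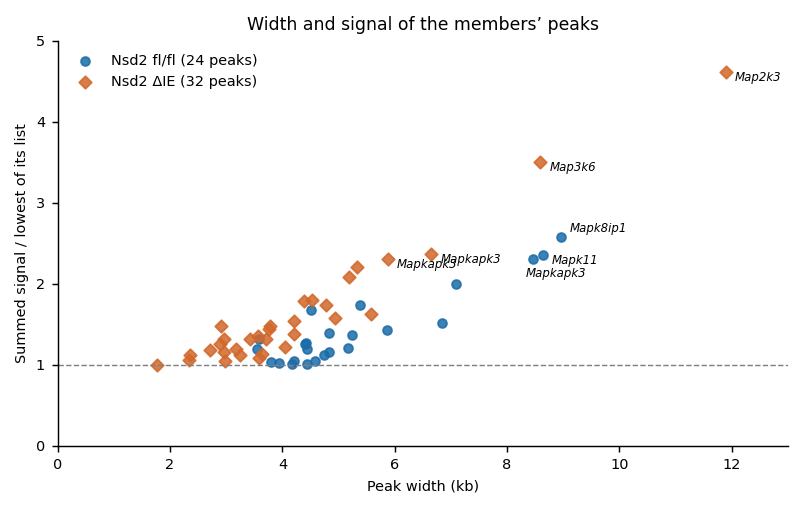
Width in kb against summed signal, as a multiple of the lowest signal in the same list (dashed line at 1), of the 24 Nsd2 fl/fl peaks and 32 Nsd2 ΔIE peaks named for cascade genes. Most points lie near the line, and the widest and strongest is the Nsd2 ΔIE peak at Map2k3, at 4.61 times the lowest.

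Of 62 other genes of the pathway, 31 had a named peak in Nsd2 fl/fl (50%, against 30.9% of protein-coding genes), and 25 had one in Nsd2 ΔIE (40.3%, against 32.9%). Of the 38 with a named peak, 20 had less length in Nsd2 ΔIE, 10 more and 8 a similar length, where 43.8% of protein-coding genes with a peak had less and 37.6% more. By extent 33 had a peak, of which 19 had less length, 6 more and 8 a similar length, where the shares of protein-coding genes were 44.7% and 31.7%. The lists within this set are small, and the same shares apply to each.

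Of 10 phosphatases that switch MAP kinases off, 5 had less length and 1 more by name, and 3 and 1 by extent. Promoter peaks of Dusp1 (9245 bp), Dusp2 (7227 bp) and Dusp8 (11704 bp) were named in Nsd2 fl/fl alone, though by extent Nsd2 ΔIE had 4030 bp at Dusp2 and 3393 bp at Dusp8. Dusp7 had 30233 bp in Nsd2 fl/fl against 11586 bp in Nsd2 ΔIE by name, but 4728 bp and 4294 bp by extent. Of 18 target transcription factors, 5 had less length and 4 more by name, and 5 and 2 by extent. Junb (4009 bp), Jund (5577 bp) and Egr1 (3957 bp) had promoter peaks in Nsd2 fl/fl and no Nsd2 ΔIE peak by name or by extent, while Jun and Fos had no named peak. Fosl1 (3201 bp), Fosl2 (3691 bp) and Mef2d (4028 bp) had promoter peaks in Nsd2 ΔIE, though by extent Nsd2 fl/fl had 4840 bp at Fosl1. Mef2d had 16219 bp in Nsd2 fl/fl against 6185 bp in Nsd2 ΔIE by name, but 6455 bp and 16813 bp by extent.

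Among 14 adaptors and inputs, 5 had less length and 1 more by name, and 6 and 1 by extent. Tab1, which encodes a partner of TAK1, had 18253 bp in Nsd2 fl/fl against 6657 bp in Nsd2 ΔIE by name, and 19196 bp and 3242 bp by extent. Of 9 further upper-tier kinases, 4 had less and 1 more by name, and 4 and 0 by extent. Tnik, the gene of a kinase related to that of Map4k4, had 15033 bp and 3978 bp by name, but 19339 bp and 15311 bp by extent. Of 7 further activated kinases, 3 had more and none less by name, while by extent 2 had more and 1 less. Mknk2, which encodes a kinase of the translation factor eIF4E, had 6328 bp and 11002 bp both ways. Of the further scaffolds, Ksr1 had 18741 bp and 6052 bp by name, but 29156 bp and 21421 bp by extent, and Ksr2 had 30461 bp and 23219 bp by name, and 24436 bp and 22336 bp by extent.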

How the data were processed

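The 2 CUT&Tag libraries were processed by the submitters with Bowtie2, deepTools, SEACR and ChIPseeker, whose versions are not given in the sources used here. The submitters' notes name hg38, a human build, although the lists hold mouse genes. Peaks were called per library by the authors, and each was deposited with its position, width, summed signal, nearest gene, distance to the TSS and feature. The deposited signal is a whole number, with no scaling to depth stated, and was used only within a list. Coordinates are as the lists print them. The 32 listed members have other gene starts in the RefSeq table of GRCm38.p6, which served for names, biotypes (all 43 members matched) and promoter windows, matched to a listed TSS by equal gene length.

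Named peaks, covered lengths, overlaps of at least 1 bp and Wilson intervals were computed with Python 3.11.15, pandas 2.3.3, numpy 2.4.6, scipy 1.17.1 and bedtools 2.31.1, and plotted with matplotlib 3.10.9. The functions were tested on simulated lists. The limit of 0.5 was taken from a log fold change limit that the study set for binding peaks together with a p-value, its log base unstated, and was put here on the log2 ratio of summed widths, without a test. Alternatives were assignment by listed extent widened by 3 kb, equal numbers of peaks, the strongest 50%, a log2 limit of 1, centring, promoter peaks only, numbers of peaks, genes in both libraries only, a 1 kb promoter and a reciprocal overlap of 50%. Counting annotated exons and introns, and any peak over a TSS or within 1, 3 or 10 kb of it, were added after the data were seen. The members and lists were chosen with earlier results of these data known. All members were named, with full values for the JNK genes, MAP2 kinases of JNK, scaffolds, promoter or shared peaks and the 5 longest per library, and genes of the pathway lists with a peak in both libraries or at a promoter, of which the text gives examples. One library per genotype allowed no test. Depth is unknown.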

Additional observations from a re-analysis of the deposited data

How the results depend on the processing

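Of 66 alternative values for 18 results, 40 stayed near the reported value (counts within 1.5 times), 23 moved and 3 log2 ratios turned in direction. Each count was compared with its own reported value alone, so a turn between counts is not among these 3. By listed extent, the Nsd2 fl/fl list gave 27 genes with a peak and the Nsd2 ΔIE list 26, where 18 and 25 were reported. Less length then held for 15 genes and more for 5, where 10 and 17 were reported. The log2 ratios of summed length turned by listed extent for the MAP kinases (-1.07), the MAP2 kinases (-0.14) and the MAP3 kinases (-0.93), and that of the MAPK-activated kinases moved to -0.85. By extent, peaks in both libraries were listed for 22 genes, with more length for 5 and similar length for 11, and the JNK genes had 6624 bp in Nsd2 fl/fl. With annotated exons and introns counted too, 18 genes had peaks in both. Among the strongest 50% of each list, 11 genes had a peak in Nsd2 fl/fl and 6 in both, 1 had a similar length, 4 had a promoter peak in Nsd2 fl/fl, and the JNK genes had 4930 bp in Nsd2 ΔIE, the same as with promoter peaks only. Promoter peaks only gave 6 genes with less length, 11 with more and 1 similar. Genes in both libraries only gave 3 with less and 3 with more, since fewer genes enter. A log2 limit of 1 gave 8 similar. A 1 kb promoter left 3 genes with a promoter peak in Nsd2 fl/fl, and 8 with one in Nsd2 ΔIE, while 14 had one in Nsd2 fl/fl within 3 kb of a listed TSS under any name. A reciprocal overlap of 50% left 8.33% and 9.38% of the members' peaks shared. These are lower shares than over all peaks, but rest on only 2 and 3 peaks. Equal numbers of peaks and centring moved none of the counts past 1.5 times. The cause of the other moves was not tested. No paired analysis was possible because there was a single library of each genotype. The lists' own cutoffs and the unknown depth limit every statement that a gene has no listed peak: such a region may carry signal below the cutoff.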
